A study of Mus musculus with 12 samples.

Results

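The signalling partners of p62 are proteins that bind p62, the product of Sqstm1, and pass on signals through it. They were taken as 10 genes, Traf6, Ripk1, Cyld, Prkcz, Prkci, Mtor, Rptor, Map2k5, Mapk14 and Casp8. A gene was measured where a probe set of the array carried its symbol and no other in the platform annotation, and 9 of the 10 had 1 such probe set each, among 19248 named genes in all. Ripk1, a kinase of the tumour necrosis factor receptor pathway, was not analysed here. The data were log2 expression values from whole-transcript arrays of the striatum of 12 mice at 8 weeks, in 4 groups of 3 mice: HD transgenic with p62 knockout (HD_p62KO), HD transgenic with normal p62 (HD_p62WT), non-transgenic with p62 knockout (NT_p62KO) and non-transgenic with normal p62 (NT_p62WT). The study asked what depletion of p62 does to the transcriptome of the HD model. The HD line, its promoter, the strain and the sex of the mice are not given in the labels, which call the transgene only HD.

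p62 is best known as a receptor that carries ubiquitinated cargo into autophagosomes, but it is also a scaffold. Its PB1 domain binds the PB1 domains of the atypical protein kinases C and of the kinase encoded by Map2k5, its zinc finger binds the kinase encoded by Ripk1, and another stretch binds the ubiquitin ligase encoded by Traf6. Through these contacts p62 is tied to NF-kappaB activation, and through the products of Rptor and Traf6 to the amino acid response of mTORC1. In HD, p62 is found in the ubiquitin-positive inclusions of mutant huntingtin.

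Each value below is a log2 expression value and each difference is on the log2 scale, so that 0.24 stands for 1.18-fold. Tests were limma fits over all 19248 genes with Benjamini-Hochberg adjustment, and a gene passed at an adjusted p below 0.05. The array medians lay between 7.70 and 7.73, and 3 arrays per group limit the precision: the standard error of a member's difference between 2 groups was 0.067 to 0.13. Sqstm1 checked the p62 labels. It lay at 8.92 to 9.13 in HD_p62KO mice against 11.26 to 11.75 in HD_p62WT mice, and at 8.44 to 8.52 in NT_p62KO mice against 11.19 to 11.35 in NT_p62WT mice. The differences were -2.48 ± 0.11 and -2.78 ± 0.11 (SE, n = 3 per group; limma, adjusted p = 4.03e-07 and 1.05e-07), and all 6 knockouts lay below all 6 mice with normal p62. Markers of striatal projection neurons were bright (Penk, encoding enkephalin, averaged 12.84 over the 12 mice).

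In HD striatum 3 partners rose and 1 fell, by 1.13-fold to 1.18-fold, when the HD differences with and without p62 were averaged. Traf6, the ubiquitin ligase that starts NF-kappaB signalling, Map2k5, the kinase above ERK5, and Mtor, the kinase of mTORC1, were higher. Prkcz, an atypical protein kinase C, was lower. Loss of p62 itself was followed by no change past the test in any of the 9 partners, in HD or in non-transgenic striatum. The 4 of 9 stand against 35% of all genes that passed for the mean HD effect (19.9% higher and 15% lower), so the share was near that of the whole array.

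The 4 genes that passed are shown first by the sequence around their most upstream start in the RefSeq promoter table, 250 bases before to 50 after it, as these are the members whose expression differed between HD and non-transgenic mice. The sequences are those of RefSeq (GRCm38.p6), which listed a start for all 10 members. Each reads 5′ to 3′ in the direction of the gene, and capitals mark matches, on either strand, to the GC box GGGCGG or to the CCAAT box CCAAT.
Traf6, chr2:101678170-101678469, plus strand: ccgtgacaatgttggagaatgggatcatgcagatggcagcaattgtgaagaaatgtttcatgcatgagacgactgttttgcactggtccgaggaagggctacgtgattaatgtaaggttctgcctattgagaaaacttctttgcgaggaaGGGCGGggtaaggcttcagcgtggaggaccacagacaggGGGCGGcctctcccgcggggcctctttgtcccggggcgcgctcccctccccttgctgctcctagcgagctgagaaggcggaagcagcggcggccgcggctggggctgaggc
Map2k5, chr9:63377853-63378152, minus strand: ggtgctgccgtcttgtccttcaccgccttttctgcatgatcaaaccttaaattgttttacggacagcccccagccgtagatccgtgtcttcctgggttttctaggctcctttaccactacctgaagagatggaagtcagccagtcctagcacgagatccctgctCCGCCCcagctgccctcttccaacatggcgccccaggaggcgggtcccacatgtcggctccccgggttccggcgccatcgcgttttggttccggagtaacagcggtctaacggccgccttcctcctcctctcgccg
Mtor, chr4:148448332-148448631, plus strand: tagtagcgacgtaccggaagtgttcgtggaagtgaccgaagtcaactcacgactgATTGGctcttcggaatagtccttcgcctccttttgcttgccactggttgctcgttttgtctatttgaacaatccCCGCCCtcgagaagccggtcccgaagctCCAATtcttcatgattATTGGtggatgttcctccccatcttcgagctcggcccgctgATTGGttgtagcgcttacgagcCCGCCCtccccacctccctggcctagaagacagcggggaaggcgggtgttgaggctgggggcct
Prkcz, chr4:155361379-155361678, minus strand: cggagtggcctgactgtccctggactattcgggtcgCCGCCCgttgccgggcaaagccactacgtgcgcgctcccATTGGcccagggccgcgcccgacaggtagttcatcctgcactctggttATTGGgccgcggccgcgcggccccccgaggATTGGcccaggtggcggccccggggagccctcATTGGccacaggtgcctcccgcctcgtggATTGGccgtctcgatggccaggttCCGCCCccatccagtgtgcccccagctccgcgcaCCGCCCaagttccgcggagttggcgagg
All 4 windows held a GC box, with 2 in Traf6, 1 in Map2k5, 2 in Mtor and 3 in Prkcz. CCAAT boxes were found in Mtor, with 4, and in Prkcz, with 5. All of those in Prkcz and all but 1 in Mtor lie on the opposite strand and so read as ATTGG above. The GC boxes of Map2k5, Mtor and Prkcz likewise read as CCGCCC. Over the 10 members, 8 held a GC box and 5 a CCAAT box at the most upstream start in this table, against 35.7% and 37.4% of all 32851 windows in the table. At these starts none of the 10 held the E box CACGTG, the cyclic AMP element TGACGTCA or the TATA box TATAAA, which 7.15%, 1.79% and 13.6% of all windows held. Among the same 10 windows a match to the NF-kappaB site was found in Cyld alone, against 8.46% of all windows. Prkcz has 3 starts in the table, the printed window is the most upstream of them, and the second holds 1 cyclic AMP element. For Map2k5, Casp8, Cyld, Ripk1 and Prkci the table's most upstream start lies inside the span that the gene table gives the gene. The shares of all windows count every start in the table, while each member counts once, by its most upstream start. These are unlike sets, and the matches describe letters only.

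The ubiquitin adaptors were Traf6 and Cyld. TRAF6 builds the non-degradative ubiquitin chains that recruit the kinases of the NF-kappaB pathway, and CYLD is the deubiquitinase that takes such chains off and can be brought to TRAF6 by p62. Traf6 read 8.69, 8.71 and 8.60 in HD_p62KO mice against 8.37, 8.39 and 8.44 in NT_p62KO mice. With normal p62 it read 8.70, 8.63 and 8.81 in HD_p62WT mice against 8.48, 8.55 and 8.55 in NT_p62WT mice. All 6 HD mice lay above all 6 non-transgenic mice. The mean HD difference was 0.23 ± 0.048 (SE, n = 6 per side; limma, adjusted p = 0.00438), or 1.17-fold.

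Without p62 the Traf6 difference between HD and non-transgenic mice was 0.27 ± 0.067 (SE; limma, adjusted p = 0.0183), which passed. It was the only partner of the 9 to pass in that comparison, where 21.7% of all genes did. This call was lost without HD_p62KO replicate 2 (adjusted p = 0.0731) and without NT_p62KO replicate 1 (adjusted p = 0.0507). With normal p62 the difference was 0.18 ± 0.067 (adjusted p = 0.114), and the difference between the HD effects was 0.09 ± 0.095 (adjusted p = 0.991). The mean HD call of Traf6 held in all 25 alternatives run (adjusted p 0.000767 to 0.04).

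Cyld gave no call. It read 9.79, 9.99 and 9.95 in HD_p62KO mice against 10.02, 10.22 and 9.75 in NT_p62KO mice, and 9.97, 9.80 and 9.94 in HD_p62WT mice against 10.14, 9.88 and 10.11 in NT_p62WT mice. The groups overlapped in both comparisons. Averaged over p62 genotypes, the HD difference was -0.11 ± 0.082 (SE; limma, adjusted p = 0.297, 95% interval -0.29 to 0.07). In a fit that also held each array's SD it was -0.29 (adjusted p = 0.0463).

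**Figure D1:**
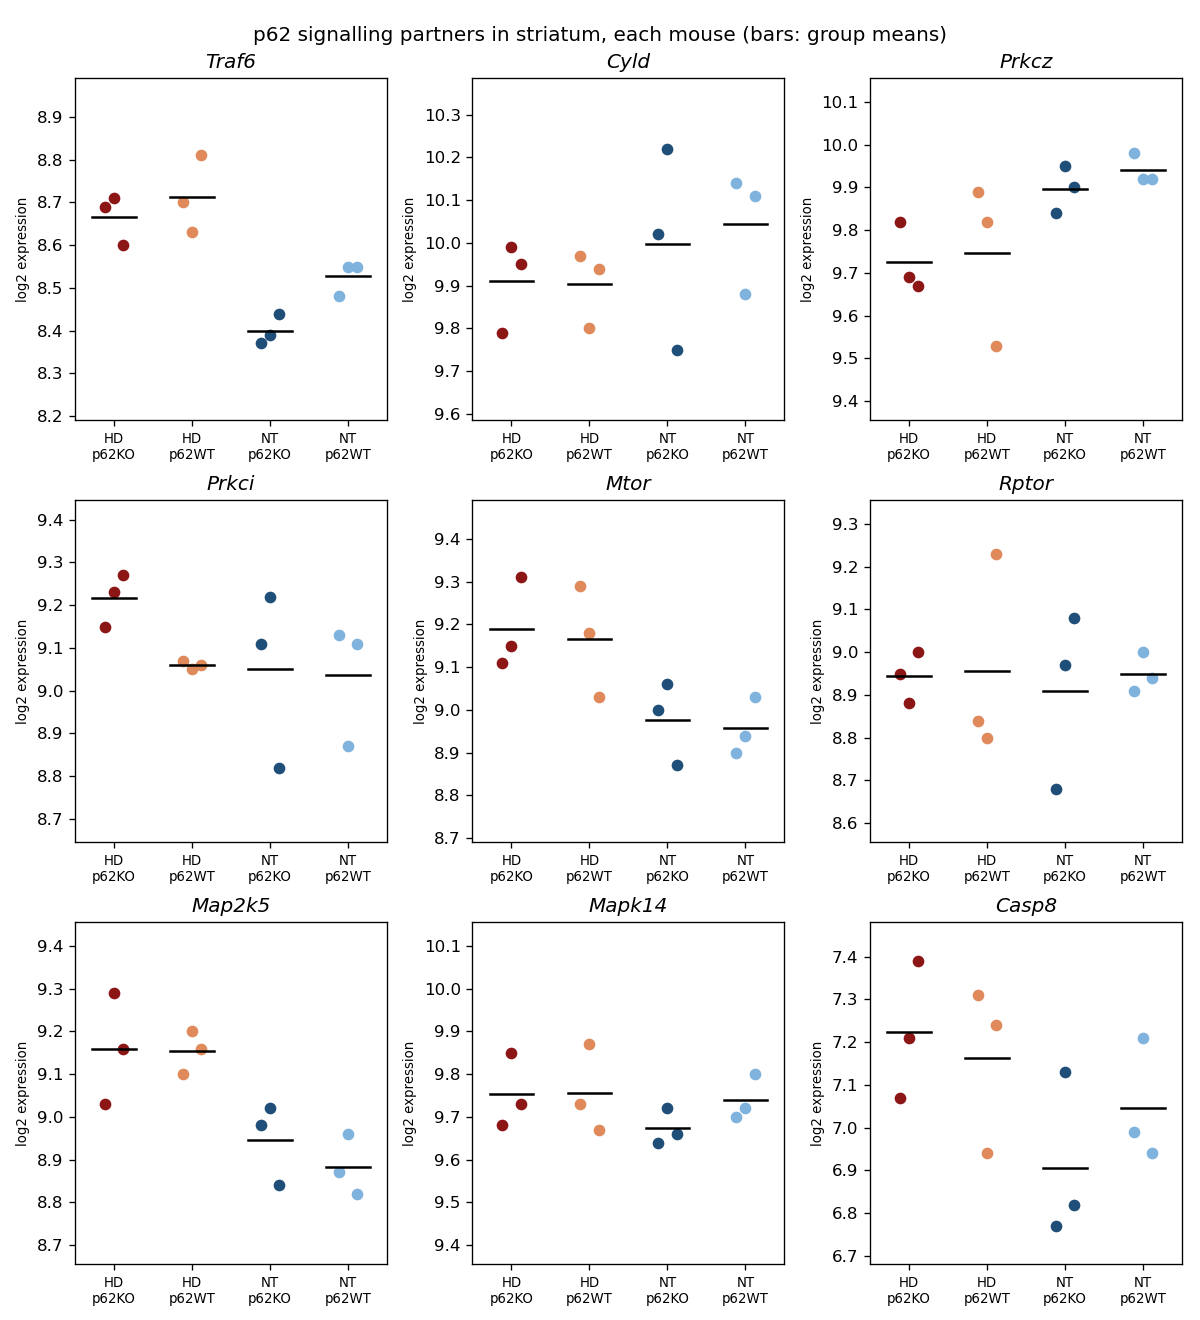
Log2 expression of the 9 measured p62 partners in each mouse, with 1 panel per gene, 1 point per mouse, a bar at each group mean and a vertical axis of the same span in all panels. In Traf6 and Map2k5 all 6 HD mice lie above all 6 non-transgenic mice, while Rptor and Mapk14 overlap in both HD comparisons.

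The atypical protein kinases C were Prkcz and Prkci, which bind p62 through their PB1 domains and act in cell polarity and NF-kappaB signalling. In brain, Prkcz also gives rise to PKM-zeta, a form without the regulatory part that holds the PB1 domain, and 1 value per gene does not separate the forms. Prkcz read 9.82, 9.69 and 9.67 in HD_p62KO mice against 9.84, 9.95 and 9.90 in NT_p62KO mice, and 9.89, 9.82 and 9.53 in HD_p62WT mice against 9.98, 9.92 and 9.92 in NT_p62WT mice. Within each p62 genotype the HD mice lay below the non-transgenic mice, while over both genotypes the 6 and 6 overlapped. The fall in the mean of the HD differences was small, at -0.18 ± 0.064 (SE, n = 6 per side; limma, adjusted p = 0.044).

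That call was the least firm of the 4. It was lost on leaving out any 1 of 9 of the 12 mice, all but HD_p62KO replicate 1 and HD_p62WT replicates 1 and 2 (adjusted p 0.0516 to 0.0939). HD_p62WT replicate 3 was the lowest Prkcz value of the 12, and without it the difference was -0.13 (adjusted p = 0.091). Separately, the differences were -0.17 ± 0.090 without p62 (adjusted p = 0.189) and -0.20 ± 0.090 with p62 (adjusted p = 0.197), and neither passed.

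Prkci did not pass. It read 9.15, 9.23 and 9.27 in HD_p62KO mice against 9.11, 9.22 and 8.82 in NT_p62KO mice, and 9.07, 9.05 and 9.06 in HD_p62WT mice against 9.13, 8.87 and 9.11 in NT_p62WT mice. The 3 HD_p62WT mice were nearly equal, while the non-transgenic mice ran from 8.82 to 9.22. On average over both genotypes the HD difference was 0.09 ± 0.072 (SE; limma, adjusted p = 0.32, 95% interval -0.06 to 0.25).

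Among mTORC1 parts the kinase and its substrate adaptor were measured. Mtor read 9.11, 9.15 and 9.31 in HD_p62KO mice against 9.00, 9.06 and 8.87 in NT_p62KO mice, and 9.29, 9.18 and 9.03 in HD_p62WT mice against 8.90, 8.94 and 9.03 in NT_p62WT mice. The HD mice were higher within each p62 genotype, with HD_p62WT replicate 3 next to the highest NT_p62WT mouse. The mean HD difference was 0.21 ± 0.061 (SE, n = 6 per side; limma, adjusted p = 0.0193), or 1.16-fold, and it was 0.21 ± 0.086 in each p62 genotype (adjusted p = 0.0917 without and 0.147 with p62). The mean call was lost without HD_p62WT replicate 1 (0.18, adjusted p = 0.0516), after a further quantile normalization (0.14, adjusted p = 0.0632) and when array spread entered the fit (0.14, adjusted p = 0.26).

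Rptor, which encodes the raptor subunit that presents substrates to mTOR and that p62 binds, read 8.95, 8.88 and 9.00 in HD_p62KO mice against 8.68, 8.97 and 9.08 in NT_p62KO mice. With p62 it read 8.84, 8.80 and 9.23 in HD_p62WT mice against 8.91, 9.00 and 8.94 in NT_p62WT mice. The groups overlapped, and HD_p62WT replicate 3 was the highest of all 12 mice. For Rptor the mean HD difference was 0.02 ± 0.085 (SE; limma, adjusted p = 0.875, 95% interval -0.17 to 0.20).

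In the MAP kinase cascade, Map2k5 encodes MEK5, which activates ERK5 and pairs with atypical protein kinases C and p62 by a PB1 domain, and Mapk14 encodes p38-alpha, a stress kinase. Map2k5 read 9.03, 9.29 and 9.16 in HD_p62KO mice against 8.98, 9.02 and 8.84 in NT_p62KO mice, and 9.10, 9.20 and 9.16 in HD_p62WT mice against 8.87, 8.96 and 8.82 in NT_p62WT mice. All 6 HD mice lay above all 6 non-transgenic mice, by a narrow margin between HD_p62KO replicate 1 and NT_p62KO replicate 2. The mean HD difference was 0.24 ± 0.057 (SE, n = 6 per side; limma, adjusted p = 0.00774), or 1.18-fold. It held on leaving out any 1 mouse and was lost, among the 25 alternatives, only when array spread entered the fit (0.16, adjusted p = 0.146).

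Separately, the Map2k5 differences were 0.21 ± 0.080 without p62 (adjusted p = 0.0756) and 0.27 ± 0.080 with p62 (adjusted p = 0.0636). The call with p62 was made without NT_p62KO replicate 3 (0.27, limma, adjusted p = 0.0452). That mouse is in neither group of this difference, which stayed the same, and enters only through the shared spread and the adjustment. The call without p62 was made without HD_p62KO replicate 1 (0.28, limma, adjusted p = 0.0322). Of the 9 partners, Traf6 and Map2k5 were the 2 in which all HD mice exceeded all non-transgenic mice, as did 10.5% of all genes. Mapk14 had the smallest SD of the 9 over the 12 mice (0.073), at 9.68, 9.85 and 9.73 in HD_p62KO mice against 9.64, 9.72 and 9.66 in NT_p62KO mice, and at 9.73, 9.87 and 9.67 in HD_p62WT mice against 9.70, 9.72 and 9.80 in NT_p62WT mice. The groups overlapped in both comparisons. Its mean HD difference was 0.05 ± 0.052 (SE; limma, adjusted p = 0.452, 95% interval -0.06 to 0.16).

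Casp8 encodes the initiator caspase of death receptors, which p62 can gather into active aggregates once it is ubiquitinated. It read 7.07, 7.21 and 7.39 in HD_p62KO mice against 6.77, 7.13 and 6.82 in NT_p62KO mice, and 7.31, 6.94 and 7.24 in HD_p62WT mice against 6.99, 7.21 and 6.94 in NT_p62WT mice. Each group spread widely and the groups overlapped. For Casp8 the mean HD difference was 0.22 ± 0.091 (SE; limma, adjusted p = 0.0834), which did not pass. It was 0.03 (adjusted p = 0.887) when array spread entered the fit. It passed with array weights (0.32, adjusted p = 0.00588), without HD_p62WT replicate 2 (0.27, adjusted p = 0.0306), without NT_p62KO replicate 2 (0.27, adjusted p = 0.0314) and without the 3 arrays of small spread named below (0.29, adjusted p = 0.0381), and lay between 0.17 and 0.27 on leaving out 1 mouse.

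**Figure D2:**
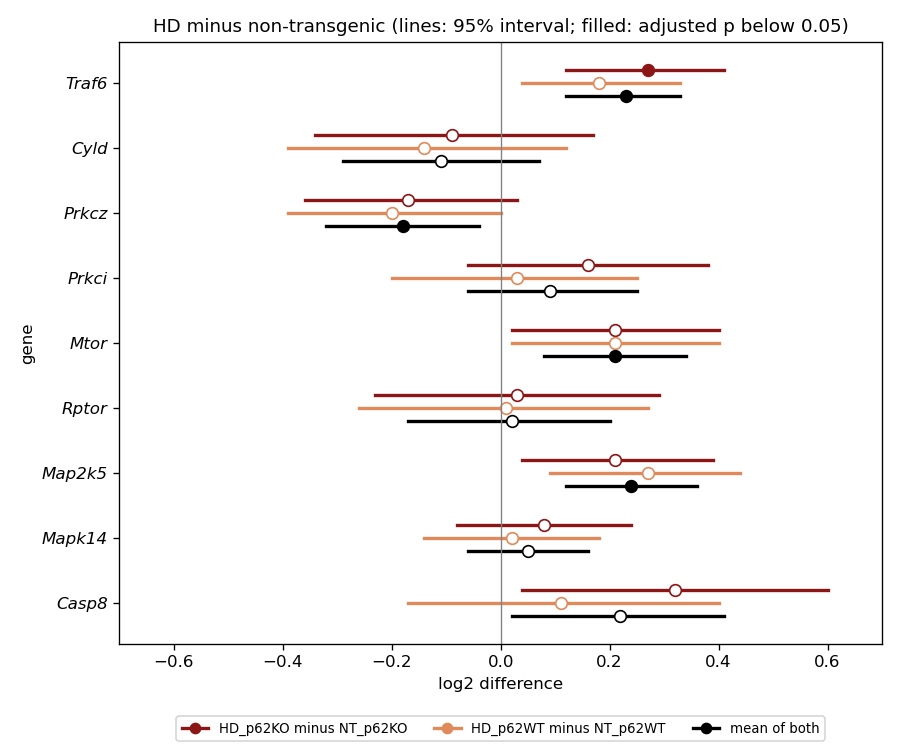
Log2 difference between HD and non-transgenic mice for each p62 partner, without p62 (HD_p62KO minus NT_p62KO), with p62 (HD_p62WT minus NT_p62WT) and as the mean of both, with 95% intervals and filled points where the adjusted p was below 0.05. The means of Traf6, Mtor and Map2k5 lie at 0.23, 0.21 and 0.24 and that of Prkcz at -0.18, and the intervals with and without p62 overlap for each gene.

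In each p62 genotype the HD and non-transgenic mice did not overlap for the same 4 of 9 partners, Traf6, Mtor, Map2k5 and Prkcz, where 39.4% of all genes did not overlap without p62 and 33.1% with it. Over the 9 partners the median mean HD difference was 0.0936, with 7 of 9 differences positive. Over all genes the median was -0.0218, so that most of them were negative. After a further quantile normalization the partners' median was 0.03 with 5 of 9 positive, and with array spread in the fit it was 0.04 with 6 of 9 positive. It was 0.05 without NT_p62WT replicate 2, 0.06 without NT_p62KO replicate 3, and 0.14 without NT_p62KO replicate 2 or with array weights. No median over all genes was taken in these alternatives. With p62, 0 of 9 passed in limma where 7.1% of all genes did, and 3 had an unadjusted p below 0.05 (25.4% of all genes). Without p62, 1 of 9 passed where 21.7% of all genes did, and 4 had an unadjusted p below 0.05 (38.8%). The partners' HD differences with and without p62 were set against each other directly, and 0 of 9 differed in limma (adjusted p at least 0.991, differences -0.06 to 0.20, 95% intervals reaching from -0.35 to 0.60). None of the 9 had an unadjusted p below 0.05 in that test, nor did any gene of the array pass it (0%).

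Several other measures differed between HD and non-transgenic mice in the same arrays. The mean of 10 striatal projection neuron markers was 10.38 to 10.53 in HD mice against 10.96 to 11.24 in non-transgenic mice, and that of 10 astrocyte markers was 9.79 to 9.89 against 9.93 to 10.12. The markers did not all move together. In the mean HD effect 9 of the 10 projection neuron markers passed lower in limma (90%, against 15% of all genes) and 1 higher. Of the 10 astrocyte markers 4 passed lower (40%) and 1 higher. The mean of 10 microglia markers overlapped, at 8.55 to 8.76 in HD mice against 8.59 to 8.74 in non-transgenic mice. So did the means of 9 oligodendrocyte markers (10.92 to 11.15 against 11.07 to 11.29), 9 endothelial markers (8.46 to 8.69 against 8.50 to 8.65), 8 choroid plexus markers (7.07 to 8.90 against 7.13 to 8.30) and 7 cortical excitatory neuron markers (7.34 to 8.19 against 7.66 to 8.68). Yet all 7 cortical markers had a negative mean HD difference (median -0.55), and 2 of them passed lower in limma (28.6%, against 15% of all genes). Of the 9 oligodendrocyte markers 4 passed lower (44.4%) and 0 higher, with a median of -0.01. The SD of an array's log2 values was 1.79 to 1.87 in HD mice against 1.73 to 1.82 in non-transgenic mice, with HD_p62KO replicate 1, HD_p62WT replicate 2 and NT_p62KO replicate 3 the smallest of their groups. In whole tissue, fewer cells of a type and less RNA per cell cannot be told apart. The part of these measures in the partners' differences was not tested beyond the fit with array spread, in which Traf6 and Cyld passed and Map2k5, Mtor and Prkcz did not.

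Loss of p62 was followed by no call among its partners. In HD mice the differences ran from -0.05 in Traf6 to 0.15 in Prkci, and in non-transgenic mice from -0.14 in Casp8 to 0.06 in Map2k5. In the limma fit reported, 0 of 9 had an unadjusted p below 0.05 in either comparison (2.88% and 3.32% of all genes did). After adjustment 0 of 9 passed in either comparison, and the same count of 0 passed in every alternative run. The background was as low: 0.0052% of all genes passed in each comparison, which was Sqstm1 itself. For the mean of both, 0.0104% passed.

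The intervals limit what could have gone unseen. The 95% intervals of the 9 partners lay between -0.27 and 0.38 in HD mice and between -0.42 and 0.24 in non-transgenic mice, and between -0.24 and 0.24 for the mean. Prkci was the partner whose HD_p62KO mice all exceeded its HD_p62WT mice (0.15 ± 0.10 SE; limma, adjusted p = 1), as did 3.26% of all genes. In non-transgenic mice the 3 Traf6 values without p62 lay below the 3 with p62 (-0.13 ± 0.067 SE; limma, adjusted p = 1), as they did for 4% of all genes. In HD mice the Traf6 difference was -0.05 ± 0.067 and the groups overlapped. The mean of 8 choroid plexus markers moved with p62 genotype in non-transgenic mice, at 8.06 to 8.30 in NT_p62KO mice against 7.13 to 7.44 in NT_p62WT mice, while in HD mice it was 7.09 to 8.90 in HD_p62KO mice against 7.07 to 8.19 in HD_p62WT mice. All 8 markers had positive differences in both comparisons and 0 passed in limma. Their part in the partners' values was not tested. The p62 differences share their samples with the HD differences above: the NT_p62KO mice that are low in Traf6 enter both.

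**Figure D3:**
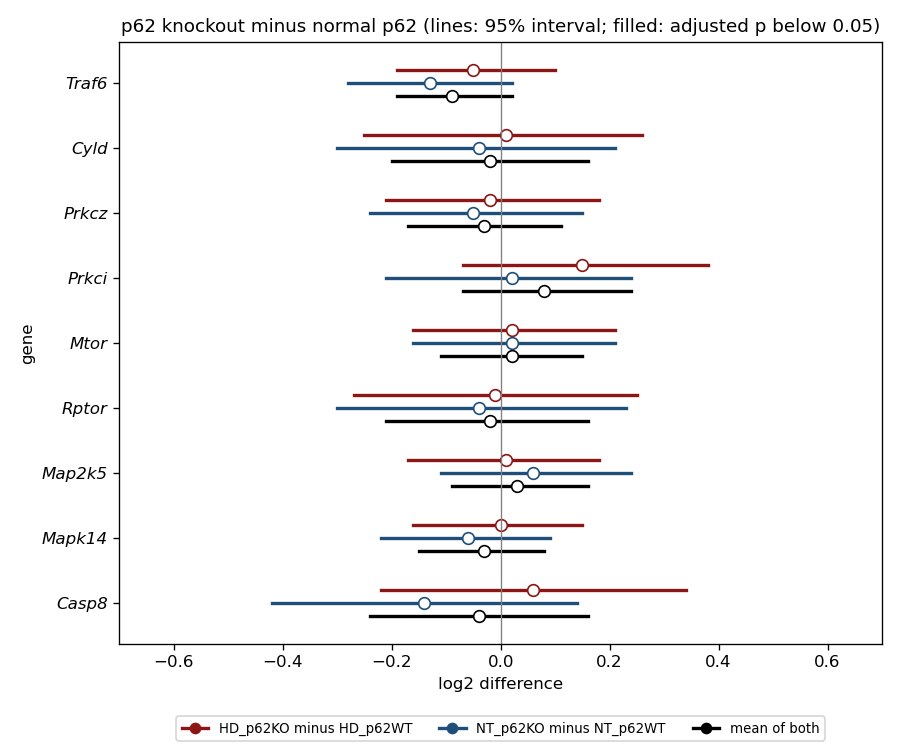
Log2 difference between p62 knockout mice and mice with normal p62 for each partner, in HD mice, in non-transgenic mice and as the mean of both, with 95% intervals. No point is filled, as none passed, and every interval drawn covers 0.

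Partners of p62 share pathways with other genes, which were read from lists chosen for these pathways. Over all genes 19.9% rose and 15% fell in the mean HD effect, and each list's shares are set beside these. Of 9 measured PB1 domain genes, the family of domains by which p62 binds kinases, 3 rose (33.3%) and 1 fell (11.1%). Map3k2, a kinase that binds MEK5 by its PB1 domain, rose by 0.37 ± 0.067 (SE; limma, adjusted p = 0.00205), and Tfg, a protein of endoplasmic reticulum exit sites, by 0.42 ± 0.078 (adjusted p = 0.00231). Sqstm1 rose by 0.39 ± 0.076 (adjusted p = 0.00293), a mean that takes in the p62 knockout mice. With normal p62 its HD difference was 0.24 ± 0.11 (limma, adjusted p = 0.179) and did not pass. In the knockouts Sqstm1 lay at 8.44 to 9.13, below the mice with normal p62, and its HD difference was 0.54 ± 0.11 (limma, adjusted p = 0.0076). Pard6b, a polarity partner of atypical protein kinases C, fell by 0.20 (SE 0.046, adjusted p = 0.00668). The autophagy receptor Nbr1 differed by 0.19 ± 0.097 (adjusted p = 0.135). ERK5 itself, Mapk7, picked after its values were seen because MEK5 acts on it, differed by -0.01 ± 0.052 (adjusted p = 0.841).

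Of 36 measured genes of the mTORC1 list 13 rose in the mean HD effect (36.1%, against 19.9% of all genes). Another 5 fell (13.9%, against 15%) and 18 did not pass, with a list median of 0.12 against -0.02 over all genes. The list also holds genes of the other mTOR complex, Rictor, Mapkap1 and Prr5. The Rag GTPases, which bring mTORC1 to the lysosome, moved in different directions: Rragb rose by 0.45 ± 0.070 (SE; limma, adjusted p = 0.00094), Rragc by 0.34 ± 0.066 (adjusted p = 0.00278), while Rragd fell by 0.36 (SE 0.071, adjusted p = 0.00305). Rictor, of the other mTOR complex, rose by 0.33 ± 0.062 (adjusted p = 0.0022). The stress-induced mTORC1 inhibitor Sesn3 differed by -0.07 ± 0.048 (adjusted p = 0.236).

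Of 34 NF-kappaB pathway genes 7 rose (20.6%), 5 fell (14.7%) and 22 did not pass, with a median of 0.06. The share that passed, 35.3%, was near the 35% of all genes. Birc2, a ubiquitin ligase of the tumour necrosis factor receptor complex, rose by 0.36 ± 0.059 (SE; limma, adjusted p = 0.00123), and Rel, an NF-kappaB subunit, by 0.30 ± 0.051 (adjusted p = 0.00145). Rbck1, part of the linear ubiquitin ligase, fell by 0.27 (SE 0.040, adjusted p = 0.000706), and Ngfr, a neurotrophin receptor that recruits TRAF6, fell by 0.25 (SE 0.058, adjusted p = 0.00651). Tab2, the ubiquitin-binding adaptor downstream of TRAF6, differed by 0.05 ± 0.048 (adjusted p = 0.469).

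Of 12 protein kinase C and polarity genes 1 rose (8.33%, against 19.9% of all genes), 7 fell (58.3%, against 15%) and 4 did not pass, with a median of -0.17. Prkcq rose by 0.43 ± 0.070 (SE; limma, adjusted p = 0.00114). Prkcb, a conventional protein kinase C, fell by 0.30 (SE 0.051, adjusted p = 0.0015), Prkce by 0.22 (SE 0.053, adjusted p = 0.00908) and Wwc1, the KIBRA scaffold that binds atypical protein kinases C, fell by 0.33 (SE 0.055, adjusted p = 0.00134). Prkca differed by -0.15 ± 0.077 (adjusted p = 0.134). The mean level of projection neuron markers fell in the same mice, as given above.

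Of 16 death receptor and caspase genes 4 rose (25%) and 2 fell (12.5%), with a median of 0.02. Xiap, a caspase inhibitor, rose by 0.28 ± 0.051 (SE; limma, adjusted p = 0.00201), and Diablo, which antagonises it, by 0.52 ± 0.10 (adjusted p = 0.0028). Cycs, encoding cytochrome c, rose by 0.27 ± 0.069 (adjusted p = 0.0117). Tnf fell by 0.39 (SE 0.094, adjusted p = 0.00857), and Cul3 differed by 0.13 ± 0.054 (adjusted p = 0.0774).

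Of 23 p38 and ERK5 MAP kinase genes 4 rose (17.4%), 4 fell (17.4%) and 15 did not pass, with a median of -0.02, and 34.8% passed against 35% of all genes. Map2k6, a kinase that activates p38, rose by 0.32 ± 0.074 (SE; limma, adjusted p = 0.00714), and Map3k4 by 0.29 ± 0.061 (adjusted p = 0.00487). Rps6ka5, the kinase MSK1 downstream of p38, fell by 0.44 (SE 0.064, adjusted p = 0.000688), and Dusp1, a phosphatase of MAP kinases induced by activity, fell by 0.48 (SE 0.11, adjusted p = 0.00757). Mef2a differed by 0.10 ± 0.054 (adjusted p = 0.168). In the mean effect of p62 loss, Sqstm1 was the only gene of these 6 lists that passed in limma.

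**Figure D4:**
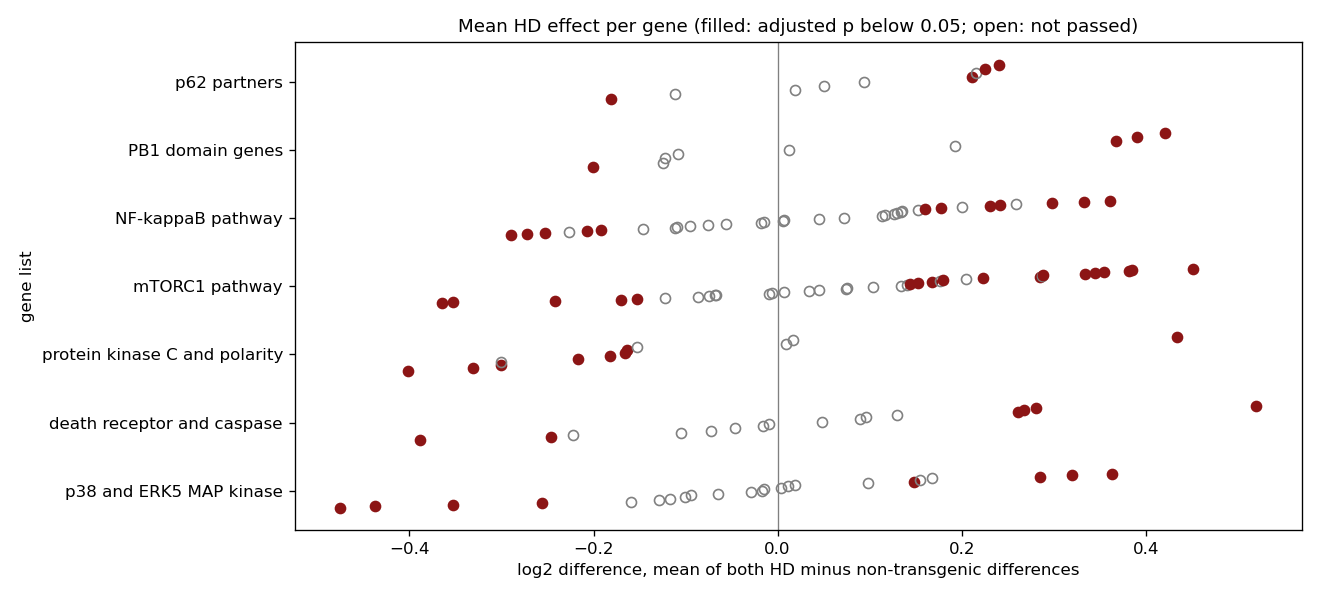
Mean HD difference on the log2 scale of each measured gene, by list, with filled points where the adjusted p was below 0.05. The partners lie between -0.18 and 0.24, and the other lists hold genes that passed in both directions, with medians from -0.17 for protein kinase C and polarity to 0.12 for the mTORC1 list.

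Genes most like the 3 partners of smallest p were read from the named genes by Pearson correlation over the 12 mice. These fall into HD and non-transgenic mice that differ in these genes. For Traf6 the genes most alike were Atg7 (r = 0.956), Thoc5 (r = 0.951) and Selenot (r = 0.935). For Map2k5 they were Sec61a2 (r = 0.957), Dst (r = 0.956) and Chd6 (r = 0.955). For Mtor they were Etfa (r = 0.953), Vps36 (r = 0.930) and Atp6v1a (r = 0.929). Symbols of the form Gm or LOC with digits, and those ending in Rik, were left out. The genes given are the highest of the rest of the 19248 and serve as a description.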

How the data were processed

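Striatum was frozen, and Affymetrix whole-transcript targets were made from 100 ng of its total RNA, per the labels. For each probe set the authors deposited a log2 value from RMA, per the submitters' processing notes. The RMA version, its settings and the genome build are not stated there. Since RMA equalizes the arrays, a change common to most genes is lost, and no detection calls were used. Of 24055 probe sets, 19942 had 1 gene symbol, 1225 several and 2888 were not listed. The brightest probe set over the 12 arrays stood for each gene, for 19248 genes.

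Group means were estimated for the 12 arrays together by limma 3.58.1 (R 4.3.3; 8 residual and 4.14 prior degrees of freedom), with Benjamini-Hochberg adjustment over all genes in each of 7 contrasts. The members and lists were chosen with earlier results of these data known. Members were all named, and each list gave up to 4 genes of smallest p that passed and its brightest other gene. Groups and replicate numbers come from the titles, which call the samples biological replicates, and p-values measure the spread between them. Same-numbered samples deviated together (r over 0.1) in 4 of 18 pairs, so the numbers were not taken as pairs. On simulated data with 200 of 19248 genes changed, the mean HD contrast recovered 13 of 100 changes of 0.2 and 79 of 100 of 0.5, with 7 false calls. Far more genes passed in the real contrast, so its adjusted threshold is not that of the simulation.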

Additional observations from a re-analysis of the deposited data

How the results depend on the processing

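No value that passed, in the fit reported or in an alternative, changed its sign, and 0 partners passed for loss of p62 or for the difference of the HD effects in any of them. Of 1611 single-gene values under alternatives, 1567 kept their side of the threshold, 23 lost the call and 21 gained one. Among values that passed in neither, 90 changed sign, 5 of them for the mean HD effect: Rptor and Mapk14 after quantile normalization, Rptor without HD_p62WT replicate 3 and without NT_p62KO replicate 1, and Prkci with array SD. For the mean HD effect the 4 partners became 2 (Traf6 and Map2k5) at an adjusted p below 0.01 and 2 (Traf6 and Cyld) with array SD as a covariate, and ranged from 3 to 5 when each mouse was left out. Over all genes 25.9% to 39.2% passed in the fits that left out 1 mouse, against 35% in the fit reported. For the HD effect with p62 the 0 partners became 1 (Map2k5) without genes below the 25th percentile of brightness, with a trended variance, at an adjusted p below 0.1 and without the 3 arrays of small spread, 2 (Traf6 and Map2k5) with array weights, and ranged from 0 to 1 when each mouse was left out. Of all genes 12.1% passed under the brightness filter, 9% with a trended variance and 2.07% to 10.6% when each mouse was left out. For the HD effect without p62 the 1 partner, Traf6, became 0 after quantile normalization, with only the groups compared in the fit, at an adjusted p below 0.01 and with array SD as a covariate, 4 (with Mtor, Casp8 and Map2k5) with array weights and at an adjusted p below 0.1, and ranged from 0 to 2. With array weights 24% of all genes passed for the HD effect with p62, against 7.1% in the fit reported. The cause of these changes was not tested, apart from stricter or looser thresholds, which act by construction. Leaving out 1 mouse lost some calls and gained others. With the replicate number as a block, 3 partners passed for the mean HD effect, Prkcz being lost (adjusted p = 0.0513), and the block changed no other call. The fits with array SD and without 3 arrays were chosen after seeing the data.

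A p that missed the threshold does not show equal levels. Signal above background was not known, and 1 value per gene does not separate transcript forms.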
